A study of Rattus norvegicus with 54 samples.

Results

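The 10 genes described here encode the proteins that move calcium in the heart muscle cell: Ryr2, Atp2a2, Pln, Sln, Casq2, Slc8a1, Cacna1c, Trdn, Jph2 and Camk2d. They were chosen by name, and all 10 were found by symbol among the 40319 genes listed for each of 54 libraries. Each library is poly(A) RNA from left ventricular tissue of an athymic female F344/NJcl-rnu/rnu rat, operated at 8 weeks of age and studied 1 week after surgery. The rats had sham surgery without treatment (sham), permanent ligation of the proximal left anterior descending coronary artery without treatment (MI), or the same ligation followed by a bi-level sheet of human endothelial progenitor and smooth muscle cells laid on the epicardium (MI+Cell Sheet). Each treatment was taken as 6 rats with 1 library each from the infarct, the border and the remote zone, which makes 9 groups of 6. The infarct samples are of the anterior wall, the border samples of the lateral wall and the remote samples of the septum, and in sham hearts the zone names mark these places alone. All 3 treatments share the athymic host, which lacks mature T cells and keeps its other leukocytes. Counts are assigned to rat genes alone, so transcripts of the human sheet were not analysed separately. Whether some of their reads were counted on rat genes was not tested. Levels are in CPM, a gene's counts relative to the size of its library, after TMM scaling for libraries dominated by a few genes. They are not divided by gene length, so that 1 gene is compared across libraries and never with another gene.

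In a heartbeat, calcium enters through the L-type channel in the T-tubule and opens the ryanodine receptor in the facing membrane of the sarcoplasmic reticulum (SR), which releases the stored calcium that drives contraction. Relaxation follows when the SR pump SERCA2 takes calcium back up, held in check by the small proteins phospholamban and sarcolipin, and when the sodium-calcium exchanger carries the remainder out of the cell. Lower SERCA2 against phospholamban and greater reliance on the exchanger are known features of failing ventricles.

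All but 1 of the members correlated with each other over the 54 libraries, as given below, though not every comparison moved them alike. For 3 of them, the pump, its inhibitor and the SR calcium store, the RefSeq stretches of 250 bases before the start are shown. Muscle motif matches are in capitals. The stretches are on build GRCr8, on the plus strand, at chr12:39733269-39733518 (Atp2a2), chr20:33172244-33172493 (Pln) and chr2:192214306-192214555 (Casq2). The deposited counts used another build, mRatBN7.2, so these places are not coordinates of the counts.
Atp2a2: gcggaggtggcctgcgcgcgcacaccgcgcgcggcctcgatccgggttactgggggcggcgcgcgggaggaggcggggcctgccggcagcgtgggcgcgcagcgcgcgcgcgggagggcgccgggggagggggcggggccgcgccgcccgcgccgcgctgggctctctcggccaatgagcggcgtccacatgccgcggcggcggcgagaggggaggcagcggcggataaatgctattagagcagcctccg
Pln: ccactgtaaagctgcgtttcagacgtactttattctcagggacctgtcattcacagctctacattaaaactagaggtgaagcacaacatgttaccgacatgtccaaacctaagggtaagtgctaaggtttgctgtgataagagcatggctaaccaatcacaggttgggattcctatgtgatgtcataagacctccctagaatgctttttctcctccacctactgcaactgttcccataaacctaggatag
Casq2: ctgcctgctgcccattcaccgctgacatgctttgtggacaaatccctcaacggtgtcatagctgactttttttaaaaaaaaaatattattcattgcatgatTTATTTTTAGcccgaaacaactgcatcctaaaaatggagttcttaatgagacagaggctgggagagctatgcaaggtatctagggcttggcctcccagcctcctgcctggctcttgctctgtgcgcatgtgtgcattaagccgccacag
The stretches differ in base composition: GC was 80% for Atp2a2, 44% for Pln and 46.4% for Casq2, against a median of 51.2% over 33469 rat promoters. The table held 9 of the 10 members, with Sln missing. The capitals in the Casq2 stretch are the only MEF2 match among these 9, starting 149 bases before the start, and 2.96% of all promoters hold such a match. The MCAT letters CATTCC, searched on both strands like all the others, were found for Cacna1c alone (12.1% of all promoters). GC boxes (GGGCGG) stood before Ryr2, Atp2a2 and Camk2d, 3 of 9 against 30.5% of all promoters. No member held AGATAA in this window, which 10.3% of all promoters hold. The same was true of CAGCTG (12% of promoters), of the TATA letters TATAAA (12.9%) and of a CArG box (1.5%). These matches are descriptions of letters, not binding sites.

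The libraries held 12699204 to 23397754 counts on genes. The 10 sarcomere genes used as a mark of cardiomyocyte content (Tnnt2, Tnni3, Actc1, Myl2, Myl3, Mybpc3, Actn2, Ttn, Tcap and Ldb3) summed to a median of 57831 CPM in sham remote tissue and to 3085 CPM in MI+Cell Sheet infarct tissue. In the border library of MI+Cell Sheet animal 1 the 10 genes summed to 174 CPM, and in no other library to less than 898 CPM. Sham animal 5 stood apart too, with the lowest sarcomere sums of the sham rats in all 3 zones (22903, 21198 and 31508 CPM in the infarct, border and remote zone) and the highest sums of 5 macrophage genes (1229, 1255 and 874 CPM, where the next sham libraries had 280, 252 and 189 CPM). The remote library of MI+Cell Sheet animal 1 had 40610 CPM of 6 fibroblast genes, where the next of its group had 11210 CPM. Both animals are part of every value below unless it is said that they were left out. In bulk tissue, fewer cardiomyocytes and less RNA per cardiomyocyte cannot be told apart.

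**Figure D1:**
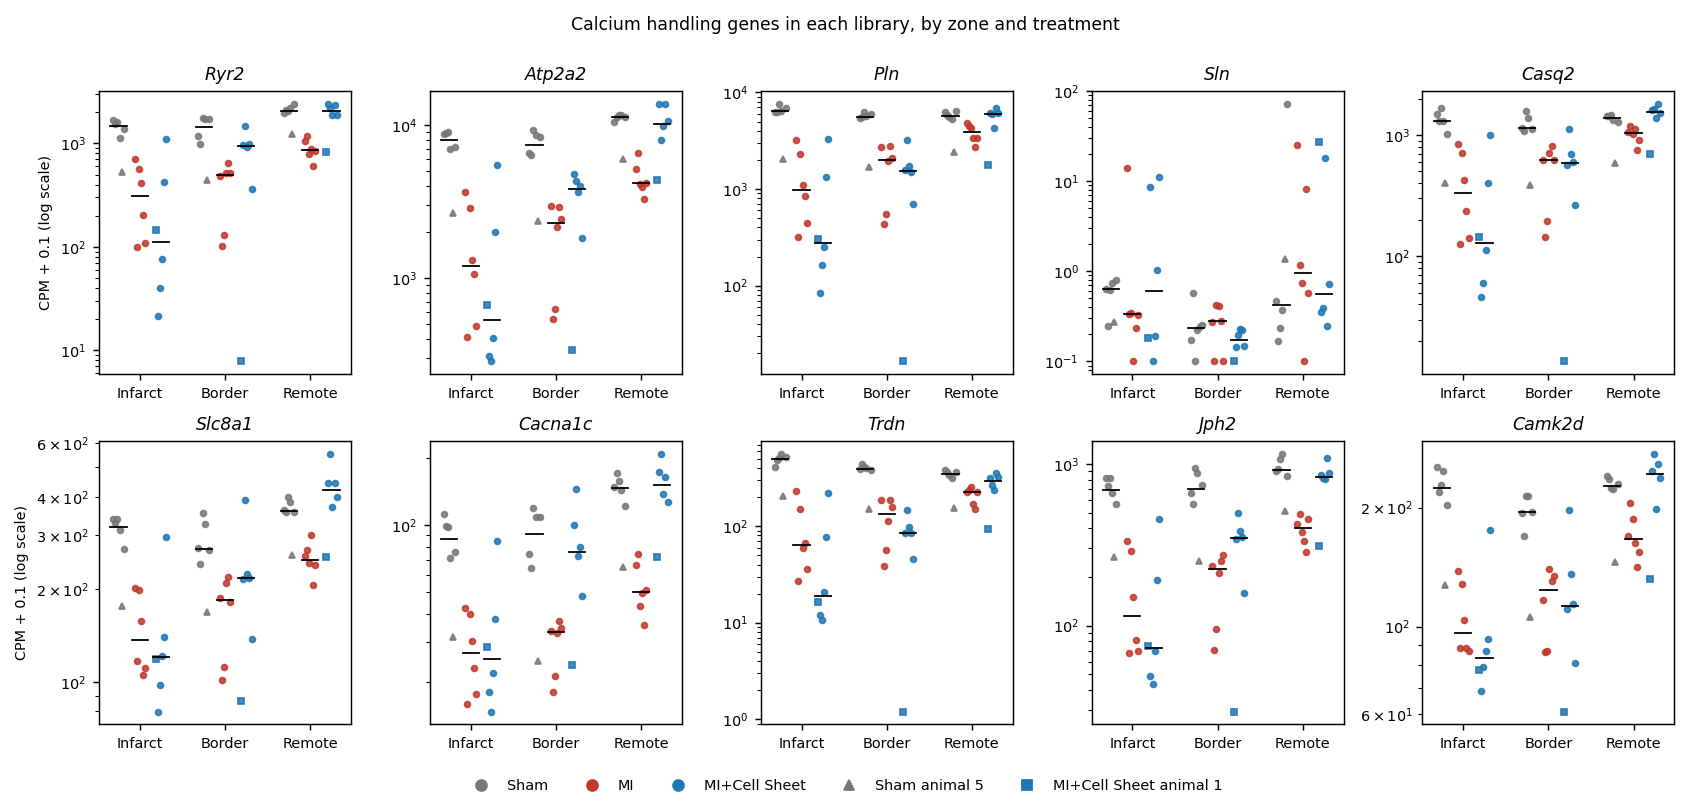
Level of each calcium handling gene in all 54 libraries, as CPM + 0.1 on a log axis, by zone (x axis) and treatment (colour). Each point is 1 library, black lines are group medians (6 libraries), and the triangle and square mark sham animal 5 and MI+Cell Sheet animal 1. In the infarct zone most MI and MI+Cell Sheet points lie below the sham points for every gene but Sln, and in the remote zone the MI+Cell Sheet points overlap the sham points.

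The first question is what infarction did in the infarct zone. Every member that could be tested was lower in MI than in sham: 9 of 9, where 27.2% of the 15758 genes tested fell. The median log2 fold change of the 9 was -1.91, beside -0.02 over all genes tested. Sln did not pass the filter on low counts there.

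Among the release genes, Ryr2, the ryanodine receptor, ranged from 534 CPM through a median of 1466 to 1672 in sham infarct libraries. In MI it ranged from 99.0 through 308 to 704 CPM. The groups overlapped only because sham animal 5 held the lowest sham value. The log2 fold change was -1.91 ± 0.50 (SE, 6 against 6 rats, edgeR quasi-likelihood test, adjusted p = 0.0080). Trdn, triadin, which anchors calsequestrin to the receptor, had the lowest fold change of the members. It went from 206, 494 and 563 CPM (lowest, median and highest sham library) to 27.2, 63.0 and 233 CPM in MI. Its log2 fold change was -2.23 ± 0.50 (edgeR adjusted p = 0.0040). Casq2, the calcium-binding protein of the SR lumen, fell by 1.53 on the log2 scale (edgeR adjusted p = 0.023), a call that was lost without MI animal 5. Jph2, junctophilin, which ties the T-tubule to the SR, fell by 1.95 (edgeR adjusted p = 0.0047).

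Of the uptake genes, Atp2a2, the gene of SERCA2, went from 2677, 8024 and 8991 CPM in sham to 416, 1198 and 3690 CPM in MI. Pln, phospholamban, went from 2065, 6380 and 7673 CPM to 322, 966 and 3235 CPM. The pump and its inhibitor thus had near-equal log2 fold changes of -2.14 ± 0.55 and -2.11 ± 0.55 (edgeR adjusted p = 0.0078 and 0.0085). The genes of the outer membrane and of the kinase moved less. Cacna1c, the pore of the L-type channel, fell by 1.53 on the log2 scale, Slc8a1, the sodium-calcium exchanger, by 0.99, and Camk2d, the calmodulin-dependent kinase that phosphorylates Ryr2 and Pln, by 1.01 (edgeR adjusted p = 0.0030, 0.0032 and 0.0012).

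MI+Cell Sheet infarct tissue showed the same direction against sham. All 9 tested members were lower, from -1.05 ± 0.30 for Slc8a1 to -2.93 ± 0.76 for Trdn on the log2 scale (edgeR adjusted p = 0.011 and 0.0068), against 29.2% of all genes that fell. The call of Ryr2 in this comparison was the weakest of them (-2.13 ± 0.83, edgeR adjusted p = 0.044) and was lost in 10 of the 12 fits that left out 1 rat, and the count of members called went down to 5 without MI+Cell Sheet animal 1.

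Between MI+Cell Sheet and MI in the infarct zone, no member was called, and neither was any of the 16196 genes tested (0%). At an unadjusted p under 0.05 there were 1341 genes, and DESeq2 called 59, none of them members. The rats differed widely. Ryr2 spanned 21.5 to 1103 CPM over the 6 MI+Cell Sheet libraries, and animal 6 alone held 1103 CPM against 428 CPM in the next. The fold change of Ryr2 was -0.21 ± 0.87 and that of Pln -0.61 ± 0.87, and a missed threshold with errors of this size does not show that the levels were alike. The comparisons within a zone share libraries, so they are not independent of each other.

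Border tissue had 8 of 9 tested members lower in MI than in sham, against 23.2% of all genes. The lowest were Atp2a2 (-1.84 ± 0.48) and Jph2 (-1.83 ± 0.38, edgeR adjusted p = 0.011 and 0.0043). Jph2 went from 249.6, 703 and 937 CPM in sham to 71.1, 224 and 272 CPM in MI. The smallest falls among those called were Slc8a1 with 0.69 and Camk2d with 0.66 on the log2 scale. Casq2 did not pass (-1.11 ± 0.44, edgeR adjusted p = 0.060) and did without sham animal 5 (edgeR adjusted p = 0.014), where all 9 were called. Calls over all genes also went from 6517 in the main fit to 9641 without this animal.

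Cacna1c was the only member called between MI+Cell Sheet and MI in the border zone. It ranged from 17.8 through 33.1 to 37.2 CPM in MI and from 23.5 through 76.0 to 144 CPM in MI+Cell Sheet. Only the library of animal 1 fell within the MI range, and the other 5 lay above it. The log2 fold change was 1.42 ± 0.36 (edgeR adjusted p = 0.017), with 8.47% of all genes higher. Against sham, the channel gene stood at -0.11 ± 0.43 (edgeR adjusted p = 0.85). Other members were not called: Ryr2 was at 1.00 ± 0.79, Atp2a2 at 0.72 ± 0.58 and Trdn at -0.67 ± 0.71 against MI (edgeR adjusted p = 0.42, 0.43 and 0.56).

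Compared with sham, MI+Cell Sheet border tissue had 1 member called, Trdn, at -2.26 ± 0.70 (edgeR adjusted p = 0.021), with 23.2% of all genes lower. That count moved with the settings. It was 3 without MI+Cell Sheet animal 1 or without animal 3, 5 without sham animal 5, and 4 with DESeq2 or with all 9 groups in 1 fit. It was 6 when sham animal 5 and MI+Cell Sheet animal 1 were left out together, adding Atp2a2, Pln, Casq2, Jph2 and Camk2d, all of them lower. Calls over all genes moved too, from 6955 of 15960 tested in the main fit to 9954 without sham animal 5. In the border library of MI+Cell Sheet animal 1, Pln was at 16.3 CPM where the next was 693 CPM, and Trdn was at 1.10 CPM where the next was 45.4 CPM. Atp2a2 kept 341 CPM there, Cacna1c 23.5 CPM and Slc8a1 86.5 CPM. The 5 adipocyte genes (Adipoq, Plin1, Cidec, Lep and Adrb3) scored 5.08 in this library as mean log2(CPM + 0.1), and -2.54 at most in sham border libraries. Their part in these values was not tested. Adipocyte scores of 3.40, 5.04 and 5.87 were also found in the border libraries of animals 2, 5 and 6.

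In the remote zone, the ventricular septum, 6 of 10 tested members were lower in MI than in sham, against 14.2% of all genes (2170 lower and 1782 higher, or 1189 and 2597 without TMM scaling). Cacna1c fell by 1.33, Jph2 by 1.19, Atp2a2 by 1.19 and Ryr2 by 1.16 on the log2 scale, with SEs of 0.19 to 0.22 and edgeR adjusted p from 0.0014 to 0.0026. Ryr2 spanned 1225 to 2418 CPM in sham and 603 to 1188 CPM in MI, and Jph2 spanned 508 to 1156 CPM and 284 to 492 CPM. These were the 2 members whose groups did not overlap, sham animal 5 included. Overlap was not computed for other genes, so the share of all genes without it is not known. Trdn and Slc8a1 fell by 0.60 and 0.48 (edgeR adjusted p = 0.040 and 0.0089), and the call of Trdn was lost in 9 of the 12 fits without 1 rat.

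Pln, Casq2 and Camk2d were not called in remote MI tissue. Pln had medians of 5683 CPM in sham and 3857 CPM in MI (-0.46 ± 0.23, edgeR adjusted p = 0.16), Casq2 had 1385 and 1041 CPM (-0.32 ± 0.20, edgeR adjusted p = 0.25), and Camk2d had 227 and 166 CPM (-0.35 ± 0.13, edgeR adjusted p = 0.058). Sham animal 5 held the lowest sham value of all 3 genes. Without it, 9 members were called, Pln, Casq2 and Camk2d at -0.60, -0.46 and -0.44 among them. Calls over all genes also went from 3952 in the main fit to 7177 without this animal.

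The same 4 leading genes were higher in remote tissue with the sheet than in MI. Cacna1c was 1.45 ± 0.23 log2 units higher, Atp2a2 1.13 ± 0.29, Ryr2 1.09 ± 0.24 and Jph2 0.99 ± 0.24, and Slc8a1 followed with 0.69 ± 0.16 (edgeR adjusted p = 0.0062 to 0.024). That is 5 of 10 tested members, where 10.3% of all genes were higher (1579 higher and 1044 lower, or 1065 and 1129 without TMM scaling). Cacna1c ranged from 35.8 through 50.2 to 73.9 CPM in MI and from 71.9 through 151 to 208 CPM in MI+Cell Sheet. Atp2a2 ranged from 3294 through 4176 to 6613 CPM in MI and from 4366 through 10231 to 13898 CPM with the sheet. In both genes the overlap was the library of MI+Cell Sheet animal 1 alone, and without that rat 9 members were called, all higher. Calls over all genes also went from 2623 in the main fit to 6450 without that rat. The calls of both remote comparisons depend on how the spread is estimated: with all 9 groups in 1 fit, 1 member was called in each (Cacna1c), with near-equal fold changes.

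Against sham, remote tissue with the sheet had no member called and 1 gene in all (0.0066%). At an unadjusted p under 0.05 edgeR had 1520 genes, and DESeq2 called 180 genes and no member. The 9 tested members lay between -0.29 ± 0.28 (Trdn) and 0.20 ± 0.16 (Slc8a1), and Atp2a2 at -0.07 ± 0.29 and Cacna1c at 0.11 ± 0.24 were near 0. The missed threshold does not show that the levels were equal.

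**Figure D2:**
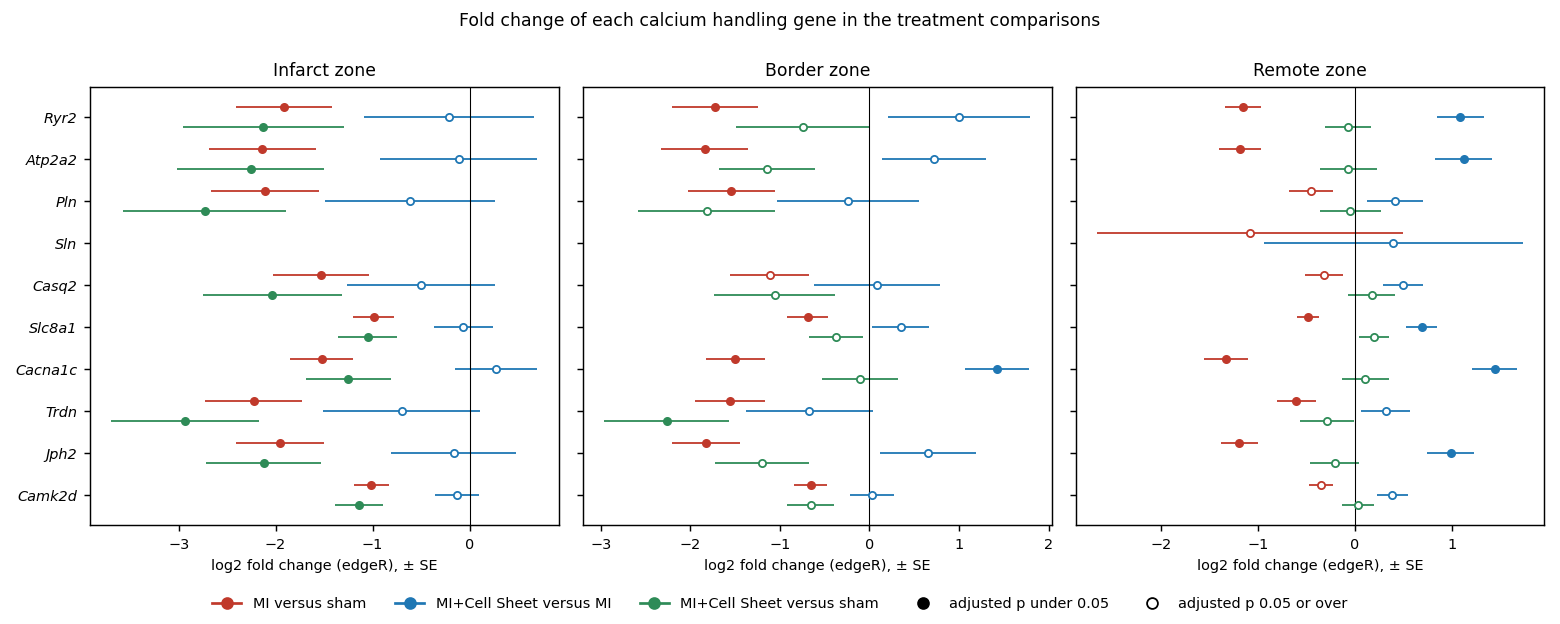
Log2 fold change of each calcium handling gene from edgeR, with its standard error, in the infarct, border and remote zones. Colours are the 3 comparisons of treatments, and filled points have an adjusted p under 0.05. In the remote zone Cacna1c, Jph2, Atp2a2 and Ryr2 lie below -1 in MI versus sham, near or above 1 in MI+Cell Sheet versus MI and near 0 in MI+Cell Sheet versus sham.

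Some markers of other cells moved with these comparisons. The fibroblast list (Col1a1, Col1a2, Col3a1, Dcn, Pdgfra and Postn) had 5 of 6 genes higher in MI than in sham in infarct and remote tissue and 6 of 6 in border tissue. It summed to 3175 to 5058 CPM in sham remote (median 3891), 6102 to 24173 CPM in MI remote (median 15028) and 3147 to 40610 CPM in MI+Cell Sheet remote libraries (median 4844). Macrophage genes had 3, 4 and 1 of 5 higher in the infarct, border and remote zone, and neutrophil genes 3 of the 3 tested in each. Of all genes, 22.7%, 18.4% and 11.7% were higher in MI than in sham in these zones. The 5 macrophage genes had medians of 157, 478 and 181 CPM in remote tissue of sham, MI and MI+Cell Sheet hearts. Between MI+Cell Sheet and MI in remote tissue, 2 of 10 sarcomere genes were higher (median 0.39), 1 of 6 fibroblast genes was lower and 2 of 3 neutrophil genes were lower. Of all genes, 10.3% were higher and 6.79% lower in this comparison. The sarcomere list fell alongside the members in MI, where 27.2%, 23.2% and 14.2% of all genes fell in infarct, border and remote tissue. It had 10 of 10 genes lower in infarct tissue (median -1.76), 9 in border tissue (-1.55) and 5 in remote tissue (-0.60). What part these cells had in the members' differences was not tested. The share of reads that lay on no gene varied as well, from a median of 12.2% in MI+Cell Sheet infarct to 32.0% in MI remote libraries, and its part was not tested.

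Since sarcomere genes fell too, each member was also measured against them, as its log2(CPM + 0.1) minus the mean of the same over the 10 sarcomere genes. Of 90 such differences between groups, 48 passed an exact permutation test after adjustment over the 90. Other genes were not tested on this measure, so this count has no share of all genes beside it and says nothing particular of the members. In remote MI tissue, Cacna1c, Atp2a2, Jph2 and Ryr2 were below sham by more than the sarcomere genes, with differences of -0.67, -0.55, -0.53 and -0.52 (exact permutation adjusted p = 0.0078 for each). Casq2 and Camk2d were below sham by less than the sarcomere genes, with differences of 0.37 and 0.30 (exact permutation adjusted p = 0.0078 and 0.017). Camk2d lost the call when 5 cardiomyocyte energy genes were the reference (0.29, exact permutation adjusted p = 0.16). Pln stood at 0.22 and Trdn at 0.07 (exact permutation adjusted p = 0.088 and 0.58). With the sheet, the same 4 genes were above MI by 1.03, 0.68, 0.53 and 0.66 in the order Cacna1c, Atp2a2, Jph2 and Ryr2 (exact permutation adjusted p = 0.0078 for Cacna1c, Jph2 and Ryr2 and 0.013 for Atp2a2). In the border zone Ryr2 was 1.02 and Atp2a2 1.32 above MI on this measure, in 6 of 6 libraries each (exact permutation adjusted p = 0.0078), where the level of neither gene passed the test. Without MI+Cell Sheet animal 1 the difference of Atp2a2 was 0.78 (exact permutation adjusted p = 0.0085). Pln and Trdn stood at -0.21 and -0.60 there (exact permutation adjusted p = 0.017 and 0.020), but with the energy genes as reference Pln turned to 0.23 and Trdn was at -0.16, neither of them called (exact permutation adjusted p = 0.36 and 0.66).

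In the infarct zone the exchanger and the kinase were higher than sham when set against sarcomere genes. Slc8a1 was 1.08 higher than sham relative to them in MI and 2.36 higher in MI+Cell Sheet (exact permutation adjusted p = 0.029 and 0.0078). Camk2d stood at 1.08 and 2.34 (exact permutation adjusted p = 0.041 and 0.013). Of the 12 fits that left out 1 rat, 5 lost the call of Slc8a1 in MI and 7 that of Camk2d. Both genes are known to be active in other cells of the heart as well. Atp2a2, Pln and Trdn were below sham by more than the sarcomere genes in MI infarct tissue, with differences of -0.40, -0.38 and -0.49. The sign of these differences turned when the energy genes were the reference.

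**Figure D3:**
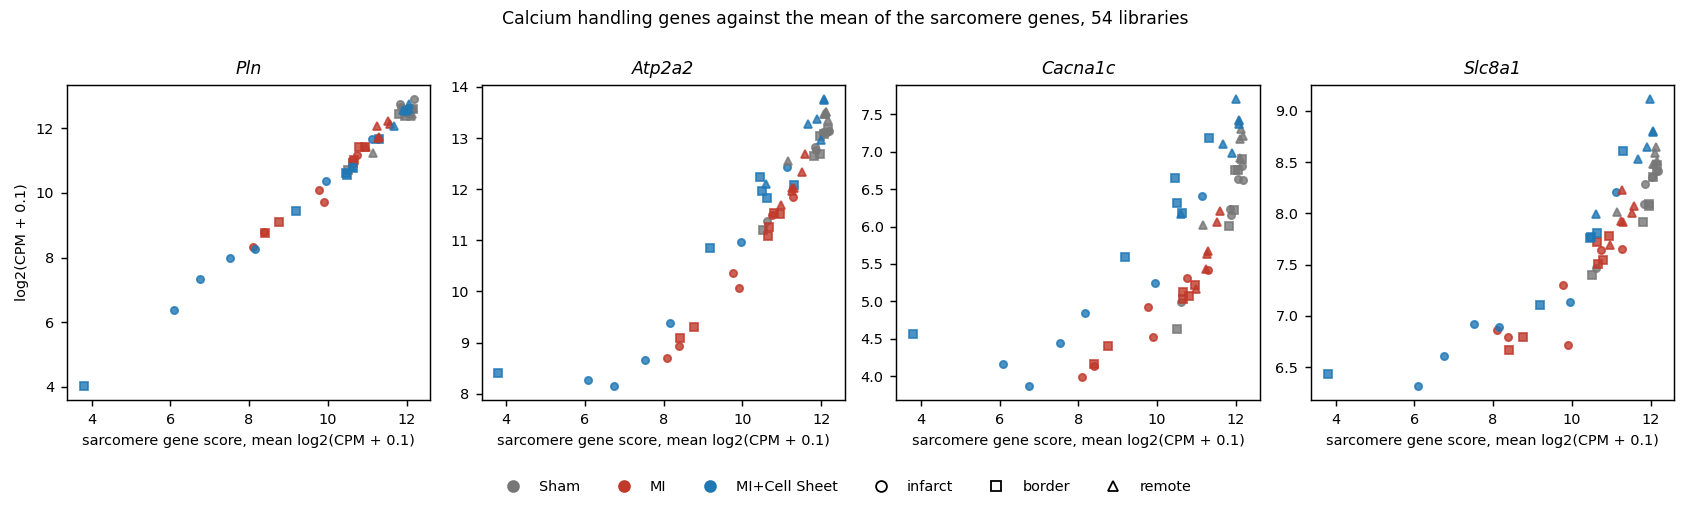
Level of Pln, Atp2a2, Cacna1c and Slc8a1 as log2(CPM + 0.1) against the mean log2(CPM + 0.1) of 10 sarcomere genes in 54 libraries. Colour is the treatment and shape the zone. Pln follows the sarcomere genes closely over the whole range, while Cacna1c and Slc8a1 flatten at low scores.

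The ratio of phospholamban to its pump was tested next. In remote tissue, log2(Pln/Atp2a2) averaged -1.01 ± 0.22 (SD, n = 6) in sham and -0.24 ± 0.20 in MI, and every MI library lay above every sham library (difference 0.77, exact permutation test, adjusted p = 0.0089 over 45 ratios). With the sheet it averaged -0.98 ± 0.32. That was 0.74 below MI (exact permutation adjusted p = 0.011, 5 of 6 libraries below all of MI) and 0.03 above sham (exact permutation adjusted p = 0.85). Infarct libraries averaged -0.30 ± 0.19 in sham and -0.28 ± 0.10 in MI (exact permutation adjusted p = 0.82), and MI+Cell Sheet lay lower at -0.98 ± 0.48, all 6 libraries below every MI and every sham library (exact permutation adjusted p = 0.0089 for each). Border libraries of MI+Cell Sheet averaged -1.72 ± 1.37, below MI in 6 of 6 libraries (exact permutation adjusted p = 0.0089), with animal 1 at -4.38. The difference from MI was -1.53, and -0.999 without that animal (exact permutation adjusted p = 0.0081). Of the genes themselves, Atp2a2 was higher than in MI in remote tissue, and in the infarct zone neither gene passed the test against MI. The sarcomere sums had medians of 12476, 22331 and 35008 CPM in MI infarct, border and remote libraries. With the sheet they were 3085, 18823 and 53516 CPM. In the border library of animal 1, with a sum of 174 CPM, Atp2a2 was at 341 CPM and Pln at 16.3 CPM. What part cardiomyocyte content and other cells had in the Pln/Atp2a2 ratios was not tested.

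Casq2 against Ryr2, the store against its release channel, was compared in the same way. In remote libraries the mean log2 ratio was -0.70 ± 0.25 in sham, 0.19 ± 0.17 in MI and -0.40 ± 0.12 in MI+Cell Sheet (n = 6 each). MI lay above sham in 6 of 6 libraries and MI+Cell Sheet below MI in 6 of 6 (exact permutation adjusted p = 0.0089 for both). The ratio was also higher in MI than in sham in the infarct zone by 0.43 and in the border zone by 0.63 (exact permutation adjusted p = 0.011 and 0.0089). With the sheet the ratio was 0.07 above MI in the infarct zone (exact permutation adjusted p = 0.81). In the border zone it differed from MI by -0.75 (exact permutation adjusted p = 0.032), a call lost in 9 of the 12 fits without 1 rat. The exchanger against the pump, log2(Slc8a1/Atp2a2), was higher in MI in all 3 zones, by 1.48, 1.30 and 0.71 in the infarct, border and remote zone (exact permutation adjusted p = 0.011 for each). Against MI, the sheet group differed by 0.44, -0.35 and -0.41 in the same zones, none past the threshold (exact permutation adjusted p = 0.55, 0.53 and 0.18). Median sarcomere sums in MI and sham were 12476 and 58636 CPM in the infarct, 22331 and 57011 in the border and 35008 and 57831 in the remote zone. What part cardiomyocyte content and other cells had in the exchanger ratio was not tested. Cacna1c against Ryr2 was 0.37 higher with the sheet than in MI in remote tissue, in 6 of 6 libraries (exact permutation adjusted p = 0.0089).

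**Figure D4:**
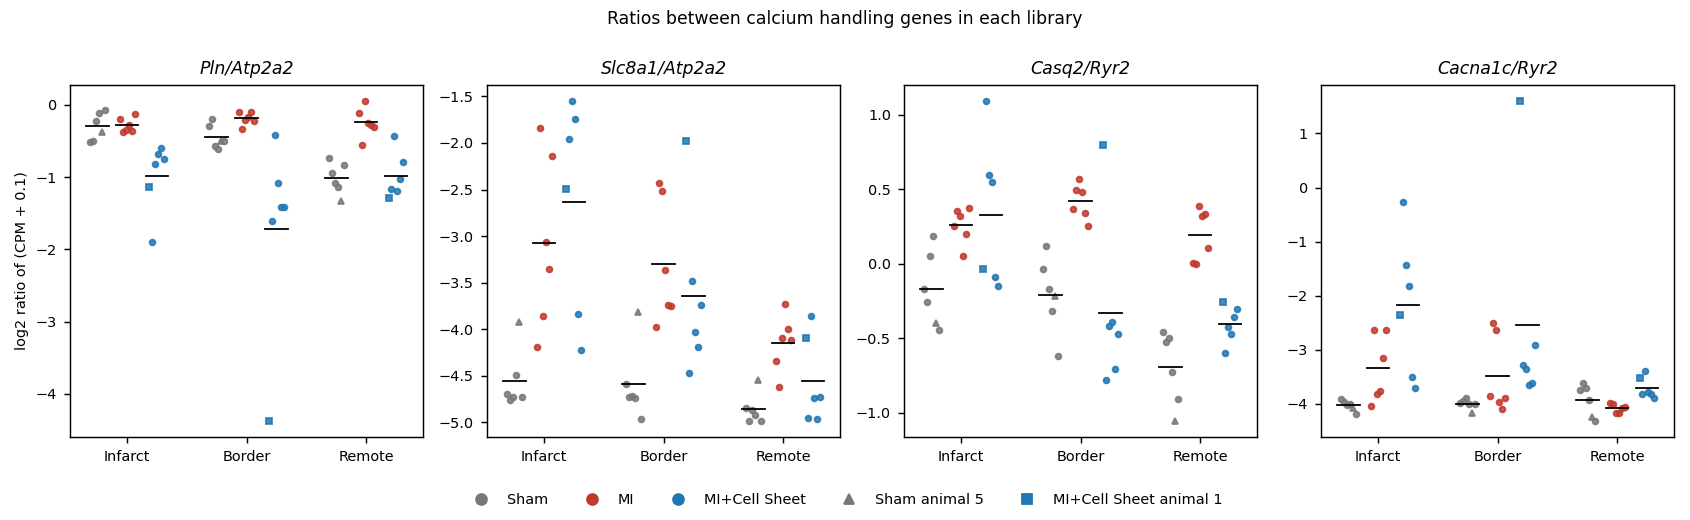
Log2 ratios of Pln to Atp2a2, Slc8a1 to Atp2a2, Casq2 to Ryr2 and Cacna1c to Ryr2 in each library, from CPM + 0.1, by zone and treatment. Black lines are group means of 6 libraries, and the triangle and square mark sham animal 5 and MI+Cell Sheet animal 1. In the remote zone all MI points for Pln/Atp2a2 and Casq2/Ryr2 lie above all sham points, and the MI+Cell Sheet means lie nearer to sham than to MI.

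Zones of the same heart were compared with the rat as a block. In sham hearts, without any infarct, 6 of 9 tested members differed between the infarct-zone site and the septum, where 32.4% of all genes did. Cacna1c was lower in the anterior wall by 0.75, Ryr2 by 0.66, Atp2a2 by 0.58, Jph2 by 0.53 and Slc8a1 by 0.27 on the log2 scale, and Trdn was 0.49 ± 0.08 higher (edgeR adjusted p from 6.3e-06 to 0.0096). Pln at 0.13 ± 0.10 and Casq2 at -0.13 ± 0.09 did not pass. The border site of sham hearts gave 6 of 9 as well, all lower, against 25.7% of all genes called, and Trdn at 0.16 ± 0.07 did not pass there (edgeR adjusted p = 0.12). The sham remote libraries serve in these comparisons and in the remote comparisons above, so the values are not independent.

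In MI hearts 9 of 9 tested members were lower in the infarct than in the remote zone (18.1% of all genes lower), from -0.69 ± 0.12 for Camk2d to -1.89 ± 0.44 for Pln, and the count went down to 4 without MI animal 6. The border zone of the same hearts had no member and no gene called (0%), with members between -0.58 and -1.45 and edgeR adjusted p of 0.075 to 0.12. There edgeR had 5943 genes at an unadjusted p under 0.05, and 5 members were called when the rat was not a block. In MI+Cell Sheet hearts the infarct zone had 9 of 10 tested members lower, from -1.25 ± 0.21 for Camk2d to -3.80 ± 0.94 for Ryr2 (31.4% of all genes lower), with Sln at -0.33 ± 2.89 (edgeR adjusted p = 0.92). The border zone had 8 of 9 lower (27.2% of all genes), Ryr2 at -1.82 ± 0.77 being the exception (edgeR adjusted p = 0.076). Without animal 1, Ryr2 was called too, at -1.27, and the count was 5 without animal 2, animal 5 or animal 6.

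Whether infarction acted differently in the infarct and the remote zone was tested as an interaction. The fall was larger in the infarct zone for 5 of 10 tested members: Pln by 2.01, Trdn by 1.98, Casq2 by 1.48, Camk2d by 0.66 and Slc8a1 by 0.52 on the log2 scale (edgeR adjusted p = 0.0076, 0.0052, 0.020, 0.0052 and 0.036), against 15.3% of all genes with a lower value. The difference for Cacna1c was -0.19 ± 0.28 (edgeR adjusted p = 0.64), and Jph2, Ryr2 and Atp2a2 stood at -0.99, -1.005 and -1.25 (edgeR adjusted p = 0.085, 0.13 and 0.098). The remaining interactions, of MI between border and remote zone and of the sheet against MI between any pair of zones, had no member called. So the higher levels with the sheet in remote tissue were not shown to differ from its effect in the infarct or border zone.

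Sln, sarcolipin, the inhibitor of the pump that is typical of atrial and skeletal muscle, behaved unlike the others. It was at or under 3 counts in 26 of 54 libraries and at 0 in 7, where a floor of 3 counts equals 0.114 to 0.265 CPM (counting error only). In 8 libraries it exceeded 5 CPM, and among the other 46 its highest value was 1.26 CPM. The highest was 72.5 CPM in the remote library of sham animal 6. Remote libraries of MI animals 1 and 5 had 24.9 and 8.16 CPM, those of MI+Cell Sheet animals 1 and 4 had 26.9 and 17.9 CPM, and the infarct library of MI animal 1 had 14.0 CPM. In all 6 of these, Myl7, the atrial myosin light chain, was high too, at 201, 62.5, 10.2, 79.6, 80.8 and 22.7 CPM in the order given, and the other 46 libraries had 8.36 CPM at most. Bmp10, another atrial gene, was at 0.592 CPM or less in every library. Mybphl reached 15.7 CPM in the remote library of sham animal 6.

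The remaining 2 libraries with Sln were the infarct zone of MI+Cell Sheet animals 2 and 6, with 8.51 and 11.1 CPM. There Myl7 was at 0.173 and 0.938 CPM, and genes of fast skeletal muscle were high. Mylpf, the fast skeletal light chain, stood at 82.2 and 116 CPM, where the other 46 libraries had 11.1 CPM at most. Myh2 had 17.7 and 43.6 CPM, Myh4 2.85 and 22.9 CPM, and Atp2a1, the fast skeletal SERCA1, 16.5 and 48.5 CPM beside 0.437 to 1.10 CPM in the other 4 libraries of the group. Ryr1, the skeletal ryanodine receptor, had 11.2 and 20.8 CPM there. Sln over 5 CPM was thus found together with Myl7 or with fast skeletal muscle genes in single libraries. In the remote comparisons of treatments it stood at -1.08 ± 1.58 (MI versus sham) and 0.40 ± 1.34 (MI+Cell Sheet versus MI), with edgeR adjusted p of 0.65 and 0.85. The part of atrial or skeletal muscle tissue in the Sln values was not tested.

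**Figure D5:**
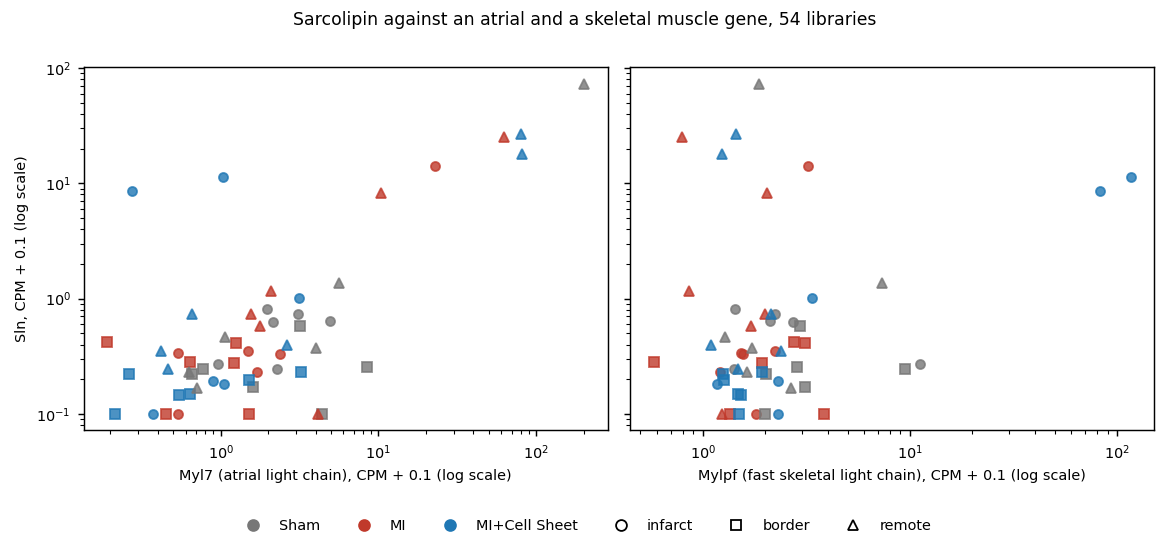
Sln against Myl7 (left) and Mylpf (right) in 54 libraries, as CPM + 0.1 on log axes. Colour is the treatment and shape the zone. The 6 libraries with Sln over 5 CPM and high Myl7 are 5 remote and 1 infarct library, and the 2 with high Mylpf are infarct libraries of MI+Cell Sheet animals 2 and 6.

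Over the 54 libraries, Pearson's r of log2(CPM + 0.1) was 0.72 to 0.99 between the 9 other members and 0.14 to 0.21 between any of them and Sln. The points share depth, zone, treatment and the content of cardiomyocytes, so these values are descriptions. Pln was closest to Casq2 and Trdn (both 0.99) and Atp2a2 to Jph2 (0.99), while Cacna1c and Trdn were the least alike (0.72). The genes searched for likeness were 13618 whose mean CPM had a log2 of at least 1. Among them, the genes most like Ryr2 were Rbm20, Akap6 and Ldb3 (0.99 or more). Those most like Atp2a2 included Dlat and Ndufs1, and those most like Pln were Tnnt2, Ppp1r14c and Apobec2. Casq2 was followed by Ppp1r14c, Srl and Myom1, Trdn by Tnni3, Mb and Fabp3, and Jph2 by genes that included Sptb and Pde4dip (0.99 each). The nearest to Slc8a1 were Slc20a2, Tead1 and Cdh2 (0.98 each), to Cacna1c Cds2, Tom1l2 and Vps13d (0.98, 0.98 and 0.97) and to Camk2d Sgcb, Grsf1 and Epdr1 (0.98, 0.97 and 0.97). For Sln they were Myl4, Myl7 and Fez1, with 0.77, 0.71 and 0.50.

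The wider pathway was followed in 8 lists of 68 further genes, 67 of them with a row in the files. Shares of all genes are given beside the counts, and a count near them says nothing particular of the list. In the infarct zone 29 of 65 tested genes were lower and 12 higher in MI than in sham, where 27.2% of all genes fell and 22.7% rose, and the median was -0.31 beside -0.02 over all genes. The genes of the SR lumen and the dyad followed the members: Tmem38a, an SR counter-ion channel, fell by 2.10, Cmya5, an organizer of the dyad, by 2.04, Hrc, a calcium-binding protein of the SR, by 2.00 and Srl, sarcalumenin, by 1.87 (edgeR adjusted p = 0.0062 to 0.025). Camk2a and Ppp1r1a, a phosphatase inhibitor, fell by 1.74 and 1.81. Among the genes that rose, Mcub, a subunit that dampens the mitochondrial calcium uniporter, was higher by 1.88 ± 0.45, Slc8b1, the mitochondrial sodium-calcium exchanger, by 1.45 ± 0.34, Cacnb3, a channel subunit, by 1.87 ± 0.35, and Gem, an inhibitor of L-type channels, by 1.45 ± 0.38 (edgeR adjusted p = 0.0017 to 0.0086). Fkbp1b, a small partner of Ryr2, rose by 1.40 and Cacna1g, a T-type channel, by 1.11.

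By list, the T-tubule and dyad organizers had 5 of 6 lower and 1 higher, the SR lumen genes 5 of 7 lower and 1 higher, and calmodulins, kinases and phosphatases 8 of 11 lower. Release channels and partners had 3 of 10 lower and 2 higher, pumps and their regulators 2 of 7 lower and 1 higher, and sarcolemmal channels and exchangers 3 of 12 lower and 4 higher. Mitochondrial transport had 3 of 7 lower and 2 higher, and store-operated entry 1 of 5 higher. Border tissue of MI hearts had 26 of 65 lower and 6 higher (23.2% and 18.4% of all genes), with a median of -0.23 beside -0.02. The leading genes were the same 3, Hrc, Cmya5 and Tmem38a, at -1.94, -1.87 and -1.84. MI+Cell Sheet infarct tissue against sham had 26 of 64 lower and 20 higher, against 29.2% and 28.6% of all genes, and medians of -0.08 and 0.01. Atp2a1 led the rises there with 3.31 ± 1.13 (edgeR adjusted p = 0.025), and its counts lay mostly in the 2 libraries with skeletal muscle genes.

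In remote MI tissue 14 of 65 were lower and 2 higher, against 14.2% and 11.7% of all genes, and medians of -0.09 and -0.04. Cmya5 fell by 1.19, Hrc by 1.18, Speg, a kinase of the dyad, by 0.94, Camk2a by 0.88, Tmem38a by 0.88 and Akap6, an anchor at the Ryr2 complex, by 0.88 (edgeR adjusted p = 0.0013 to 0.018). Fkbp1a and Calm2 rose by 0.39 each. With the sheet, 13 of 65 were higher than in MI and 4 lower, against 10.3% and 6.79% of all genes, and medians of 0.10 and 0.01. Cacna1h, a T-type channel, was 1.14 ± 0.24 higher and Cacna2d1, the auxiliary subunit of the L-type channel, 1.02 ± 0.11, with Srl, Hrc, Camk2a and Speg at 0.95, 0.95, 0.95 and 0.84. Stim2, a store sensor, was the lowest at -0.48 ± 0.12, and Sri and Fkbp1a stood at -0.35 and -0.33. In the border zone the sheet group had 8 higher and 7 lower of 65 against MI, where 8.47% and 9.48% of all genes were called, with medians of 0.10 and -0.004. Atp2a3 and Cacna2d1 were highest there, at 0.90 and 0.85, and Mcub and Calm2 lowest, at -0.76 and -0.72. Border tissue with the sheet had 12 of 65 lower and 11 higher than sham, where 23.2% and 20.4% of all genes were, with medians of -0.16 and -0.03. Tmem38a at -1.62 and S100a1, a calcium sensor that binds SERCA2 and Ryr2, at -1.59 were the lowest of these, and Camk2b at 1.83 and Cacnb3 at 1.62 the highest. Remote tissue with the sheet had none of 65 called against sham.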

How the data were processed

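Poly(A) RNA, taken here as that of 18 rats with 3 zones each, was sequenced by the study as paired ends. According to the study's methods, reads were aligned with STAR to mRatBN7.2 and DESeq2 was used for testing. The counting tool and its strand setting are not given in the sources used here. The deposited files hold raw counts per gene, with 5 summary lines that took 17.0 to 42.8% of each file and were left out. The labels number the libraries of a group 1 to 6 under a tag for technical replicates. The study's methods describe 6 hearts per group, and its results give 5 to 6 animals. Each library was taken as 1 rat and zone. If they were not separate rats, the p-values measure technical spread alone. No pair of libraries within a group (135 pairs) was identical or agreed within sampling noise.

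Counts were filtered by expression and scaled by TMM, and edgeR 4.0.16 (R 4.3.3, limma 3.58.1) fitted quasi-likelihood models over all genes of the groups compared, with Benjamini-Hochberg adjustment and a threshold of 0.05. Zones and interactions were fitted with the rat as a block, since zones came from the same hearts. Same-numbered sham zones correlated at 0.32 or more in their deviations from the group mean, MI and MI+Cell Sheet zones at -0.34 to 0.58. Ratios and levels relative to sarcomere genes used log2(CPM + 0.1) and exact two-sided permutation tests over 924 splits (smallest p 0.0022), adjusted over 45 and 90 tests. DESeq2 1.42.0, other filters, scaling without TMM, 1 fit of all groups, an offset of 1 CPM, another reference list and leaving out each rat were the alternatives. Leaving out sham animal 5 and MI+Cell Sheet animal 1 together was chosen after seeing the data.

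The 10 members and the lists were chosen with earlier results of these data known. Pathway genes were named by rule: per comparison, up to 6 of the highest and 6 of the lowest fold changes among called genes with a mean log2 CPM of at least 1. Muscle marker genes were named because the Sln values turn on them. Counting error alone sets the floor of 3 counts. If the counts were made without strand, reads of overlapping and antisense genes cannot be told apart. Some genes that these rules select are not reported here.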

Additional observations from a re-analysis of the deposited data

Results flagged for a closer look

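Of 90 groups of 6 values, 35 had 1 library that lay apart, with a gap to its neighbour that is larger, as a share of the group's range, than the critical value of Dixon's test. The share is given behind each gene. Chance alone flags about 1 group in 20, and the members share their libraries, so these are not 35 separate events. Sham animal 5 was the lowest sham library in 22 of them. In the infarct zone its gap was so for Ryr2 (0.664), Atp2a2 (0.792), Pln (0.839), Casq2 (0.655), Slc8a1 (0.656), Cacna1c (0.639), Trdn (0.694), Jph2 (0.669) and Camk2d (0.676). In the lateral wall, the border zone, it was so for Atp2a2 (0.727), Pln (0.889), Casq2 (0.727), Trdn (0.874) and Camk2d (0.666). In the remote zone it was so for Ryr2 (0.710), Atp2a2 (0.834), Pln (0.812), Casq2 (0.858), Slc8a1 (0.735), Cacna1c (0.647), Trdn (0.794) and Camk2d (0.851).

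MI+Cell Sheet animal 1 was the lowest of its group in 10. In the border zone these were Ryr2 (0.733), Atp2a2 (0.639), Pln (0.708), Casq2 (0.673) and Trdn (0.758), and in the remote zone Ryr2 (0.755), Pln (0.653), Casq2 (0.706), Trdn (0.707) and Jph2 (0.762). The remaining 3 were high values: Sln in the infarct library of MI animal 1 (0.748) and in the remote library of sham animal 6 (0.656), and Camk2d in the infarct library of MI+Cell Sheet animal 6 (0.679).

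The difference between MI and sham was not the same in the infarct and the remote zone for 5 members in the interaction test. The infarct difference minus the remote difference was -2.01 for Pln, -1.98 for Trdn, -1.48 for Casq2, -0.66 for Camk2d and -0.52 for Slc8a1 on the log2 scale (edgeR adjusted p = 0.0076, 0.0052, 0.020, 0.0052 and 0.036).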

How the results depend on the processing

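Limits: values are of bulk tissue at 1 time point, the reads on no gene differ between groups, and Sln is at or under 3 counts in 26 libraries. Of 2595 alternative fold changes of members, 123 lost and 42 gained the call, and none that was called turned its direction. Of 1845 ratios and relative values, 125 lost and 26 gained it. A sign change among values uncalled in both settings (90 and 38) was not counted as a reversal. The cause of the changes below was not tested.

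DESeq2 called 59 genes for MI+Cell Sheet versus MI in the infarct zone, 180 genes for MI+Cell Sheet versus sham in the remote zone and 4 members in the border zone. One fit of all 9 groups gave 6, 183 and 4 for the same, and 1 member in each of MI versus sham and MI+Cell Sheet versus MI in the remote zone. Leaving out sham animal 5 and MI+Cell Sheet animal 1 together gave 128 genes for MI+Cell Sheet versus sham in the remote zone and 6 members in the border zone.

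Replicate numbers did not pair rats of different treatments (correlations of -0.78 to 0.65). With the replicate block, MI versus sham in the border zone had 4193 genes and 4 members, MI+Cell Sheet versus MI 1214 genes and 0 members in the border zone and 2 genes and 0 members in the remote zone, and MI+Cell Sheet versus sham 0 members in the border zone and 0 genes in the remote zone. Zones and interactions without the block had 1081 genes and 0 members (sham, infarct versus remote), 307 and 0 (sham, border versus remote), 3409 and 5 (MI, border versus remote), 4 members (MI+Cell Sheet, border versus remote), 1431 and 0 (MI against sham, infarct minus remote), and 6 and 80 genes (MI+Cell Sheet against MI, border minus remote and border minus infarct).

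With energy genes as reference the sign turned for Atp2a2 (0.25), Pln (0.27) and Trdn (0.16) in MI versus sham infarct, for Pln in MI+Cell Sheet versus sham infarct (0.60), MI versus sham border (0.24), MI+Cell Sheet versus MI border (0.23) and versus sham border (0.48), and for Trdn in the last (0.13). Pln in MI+Cell Sheet versus sham border was called in opposite directions. It was -0.25 with the sarcomere genes and 0.48 with the energy genes (exact permutation adjusted p = 0.0085 for the energy genes). Without TMM the median of all genes moved by 0.26 in the infarct, 0.19 in the border and 0.13 in the remote zone for MI versus sham, and by 0.26 in the infarct and 0.27 in the border zone for MI+Cell Sheet versus sham. The share of higher calls went from 45.51% to 67.14%, 44.24% to 64.13% and 45.09% to 68.59% in the former (lower calls in the remote zone from 2170 to 1189), and from 49.48% to 66.26% and 46.79% to 71.17% in the latter. For MI+Cell Sheet versus MI it went from 47.19% to 57.29% in the border and 60.2% to 48.54% in the remote zone. For infarct versus remote zone it went from 50.35% to 63.21% in MI and 50.11% to 64.54% in MI+Cell Sheet hearts, and for border versus remote from 51.79% to 68.38% in the last.

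Leaving out each rat in turn gave ranges as follows. MI versus sham had 2744 to 7177 genes and 5 to 9 members in the remote zone, the most without sham animal 5 and the fewest genes without MI animal 5. MI+Cell Sheet versus MI had 1941 to 3083 genes in the border zone, and 1096 to 6450 genes and 4 to 9 members in the remote zone, the most without MI+Cell Sheet animal 1. MI+Cell Sheet versus sham had 5 to 9 members in the infarct, 1 to 5 in the border and 0 to 17 genes in the remote zone. Border versus remote zone had 2437 to 3838 genes in sham and 5 to 9 members in MI+Cell Sheet hearts. Infarct versus remote zone had 3236 to 5928 genes and 4 to 9 members in MI hearts. The interaction of MI, infarct minus remote zone, had 4 to 7 members, and that of border minus remote 0 to 1539 genes and 0 to 1 members. The interactions of the sheet against MI had 0 to 2011 (infarct minus remote) and 0 to 216 genes (border minus remote).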

Other observations

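Marker lists not used above gave the following values. Smooth muscle genes (5 listed) were higher in MI than in sham for 4 and lower for 1 in the infarct zone, and summed to medians of 223 CPM in sham, 1012 CPM in MI and 1168 CPM in MI+Cell Sheet infarct libraries. Endothelial genes had 1 of 5 lower in MI infarct tissue, with medians of 1050, 747 and 744 CPM in sham, MI and MI+Cell Sheet. Of all genes, 22.7% were higher and 27.2% lower in MI than in sham infarct tissue. Adipocyte genes summed to a median of 203 CPM in MI+Cell Sheet border libraries, and to 27.1 CPM at most in MI border libraries.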
